A study of Mus musculus with 6 samples.

Results

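The 10 genes described here encode proteins of the secondary and tertiary granules of neutrophils, together with the pair of S100 proteins that fill the neutrophil cytosol. They were chosen by name from the deposited table of 16440 genes: Ltf, Lcn2, Camp, Ngp, Olfm4, Itgb2l, Mmp8, Mmp9, S100a8 and S100a9. Chi3l3, another late neutrophil gene, is not among them, and its values could not be used, since APL library 2 lists it at 0 and the other APL libraries at 930748 and 942365 scaled fragments. RNA sequencing covered 6 libraries of sorted mouse bone marrow (BM) cells, 3 of normal myeloid progenitors (MPs) and 3 of acute promyelocytic leukemia (APL) progenitors, all on the FVB N/J strain. The normal MPs were Lin-Sca-1-c-Kit+, a gate that removes cells with mature lineage antigens and Sca-1+ stem cells and keeps progenitors of several lineages. The APL progenitors were GFP+ c-Kit+ cells of the hMRP8-PML/RARα transgenic model, labeled with the retroviral vector MigR1 and expanded by transplantation into syngeneic mice. In this model the fusion gene is driven by the promoter of human MRP8, which is the human counterpart of S100a8, one of the genes described here. The labels name no treatment, and the numbered libraries are called biological replicates without saying that they are from different mice. Here n counts libraries, and p-values measure only the spread between these libraries, which may be technical.

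Neutrophil granules are filled in sequence as the cell matures. Primary granule proteins such as myeloperoxidase are made in promyelocytes, secondary (specific) granule proteins in myelocytes, and tertiary (gelatinase) granule proteins in the cells that follow. The transcription factor C/EBPε is needed for secondary granule genes, and APL is the leukemia in which maturation stops near the promyelocyte stage.

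The regions upstream of these genes are shown first, because the text below sets genes that rose in APL progenitors beside genes that fell. Upstream windows from RefSeq (GRCm38.p6) were at hand for 9 of the 10 genes, and that of Mmp9 was not analysed here. In the 250 bases before the start, the C/EBP-like motif TTGCNNAA, searched on both strands, was present for 5 of 9 genes (Lcn2, Ltf, Mmp8, Ngp and S100a9), against 9.57% of 32536 windows of the same length over all annotated starts. It overlapped none of the other motifs searched. The ETS-like motif AGGAAGT was present for 4 of 9 (Itgb2l, Mmp8, Olfm4 and S100a8) against 7.70% of windows, the nuclear receptor half-site AGGTCA for 2 against 14.0%, the GATA motif AGATAA for 2 against 9.97%, each on both strands, and the forward TATAAA for 1, S100a8, against 7.55%. The C/EBP-like motif did not follow the direction of change, since of the 3 genes that rose S100a9 has it and Olfm4 and S100a8 do not, and of the 3 that fell Ngp and Ltf have it and Itgb2l does not. A match of letters is a description and does not show that a factor binds there. The windows of 5 genes are printed 5′ to 3′ on the strand of the gene, with the C/EBP-like motif in capitals: those of Ngp and Ltf, which fell, of Lcn2, which was not called, and of Olfm4 and S100a8, which rose. Ngp (chr9:110419558-110419807, + strand) has 2 matches, which begin 138 and 11 bases before the start. Ltf (chr9:111019042-111019291, + strand) has 1 at 75 bases and Lcn2 (chr2:32387740-32387989, - strand) has 1 at 216 bases. Olfm4 (chr14:80000052-80000301, + strand) and S100a8 (chr3:90668821-90669070, + strand) have none in this window.
Ngp: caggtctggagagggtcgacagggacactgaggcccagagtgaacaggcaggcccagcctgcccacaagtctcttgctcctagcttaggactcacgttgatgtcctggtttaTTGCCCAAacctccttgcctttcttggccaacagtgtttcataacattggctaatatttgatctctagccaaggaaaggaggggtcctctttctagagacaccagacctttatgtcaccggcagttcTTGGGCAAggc
Ltf: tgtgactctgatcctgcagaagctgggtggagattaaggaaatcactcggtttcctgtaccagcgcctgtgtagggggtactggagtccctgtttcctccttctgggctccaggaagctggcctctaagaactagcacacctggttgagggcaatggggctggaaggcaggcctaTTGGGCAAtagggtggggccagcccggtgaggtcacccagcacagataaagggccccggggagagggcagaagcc
Lcn2: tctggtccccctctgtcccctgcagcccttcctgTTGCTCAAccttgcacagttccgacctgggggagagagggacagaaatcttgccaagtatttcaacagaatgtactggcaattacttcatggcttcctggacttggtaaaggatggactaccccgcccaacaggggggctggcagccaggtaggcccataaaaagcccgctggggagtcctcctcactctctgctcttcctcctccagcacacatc
Olfm4: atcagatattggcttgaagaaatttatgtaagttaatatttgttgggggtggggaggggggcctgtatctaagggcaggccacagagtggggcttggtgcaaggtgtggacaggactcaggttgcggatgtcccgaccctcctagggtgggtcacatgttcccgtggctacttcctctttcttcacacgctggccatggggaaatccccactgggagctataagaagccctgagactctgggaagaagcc
S100a8: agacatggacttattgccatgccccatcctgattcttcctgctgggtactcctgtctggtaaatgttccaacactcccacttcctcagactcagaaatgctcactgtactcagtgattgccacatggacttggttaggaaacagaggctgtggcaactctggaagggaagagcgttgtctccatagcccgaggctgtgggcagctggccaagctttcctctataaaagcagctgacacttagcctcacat

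For every gene and library the deposited table holds FPKM (fragments per length of transcript and per depth of the library) and fragment estimates already multiplied by a library factor, called scaled fragments here. Before this scaling the libraries held between 20608715 and 28382785 fragments. All 10 genes passed the filter on low values, and none shares its listed locus with another gene. The lowest value was that of Itgb2l in APL library 1, 68 fragments before scaling, for which counting alone gives a 95% exact Poisson interval of 52.8 to 86.2. Kit was present in every library, with 10668 ± 272 scaled fragments in normal MPs and 5929 ± 132 in APL progenitors (SD, n = 3 each), whereas Cd34 had 6684 ± 1096 and 82.6 ± 8.40. Ly6a, the gene of Sca-1, was low in both groups and went the other way, with 27.2 ± 7.09 and 43.4 ± 4.99 (log2 fold change 0.68). The groups also differed in the markers of other lineages. The 7 erythroid markers summed to between 62051 and 78035 scaled fragments in normal MPs and between 287 and 453 in APL progenitors, with all 6 markers tested lower. All 4 megakaryocyte markers were lower too (2550 to 3498 against 63.3 to 96.3), as were both eosinophil markers (3031 to 5764 against 568 to 925). Of the monocyte and macrophage markers 3 of 7 were lower and 3 higher, with sums of 2097 to 2534 against 2609 to 2719. Of the mast cell and basophil markers 3 of 4 were lower and 1 higher (1453 to 2057 against 665 to 828). B cell markers had few fragments in APL progenitors (339 to 433 against 9.43 to 19.9, with 3 of 4 tested lower), and T cell markers summed to 204 to 279 against 23.6 to 39.0, with 1 of 2 tested lower, Cd3e at 0 in every MP library and Cd3g at 0 in every APL library. The part of this difference in lineage content in the results below was not tested. In bulk RNA, fewer cells of a type and less RNA per cell cannot be told apart.

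Across all genes, MP libraries 1 and 2 were the most alike, with a median absolute log2 difference of 0.08 over 11002 genes, and MP library 3 stood apart from both (0.21 from each). For the 10 genes described here it was MP library 2 that stood apart. All 10 were lowest there among the MP libraries, against 36.1% of the 14595 genes tested. The fold change of each of the 10 genes is therefore also given without MP library 2. This library was picked for its low values of these genes, so leaving it out lowers all 10 fold changes by construction. The p-values given without it are descriptions and not tests.

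In c-Kit+ APL progenitors the genes moved in different directions. Olfm4, S100a8 and S100a9 were higher than in normal MPs, Ltf, Ngp and Itgb2l were lower, and Camp, Lcn2, Mmp8 and Mmp9 were not called in either direction. A gene was called at an adjusted p under 0.05 and a fold change over 1.5 in limma's test on log2(scaled fragments + 1), with p-values adjusted by the Benjamini-Hochberg method over the 14595 genes that were tested. By this rule 24.4% of all genes were lower and 21.7% higher in APL progenitors, so that 3 of 10 in each direction is close to the share of genes at large. The 10 genes had a median log2 fold change of 0.06, against −0.10 for all genes tested. Without MP library 2, 4 genes were lower and 3 higher. Without MP library 3, 3 were lower and 4 higher. For all 6 called genes the MP and APL libraries did not overlap, 3 lower and 3 higher, as for 39.8% of all genes tested in the lower and 31.1% in the higher direction. These 6 kept their direction in 6 other settings of scaling or unit.

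**Figure D1:**
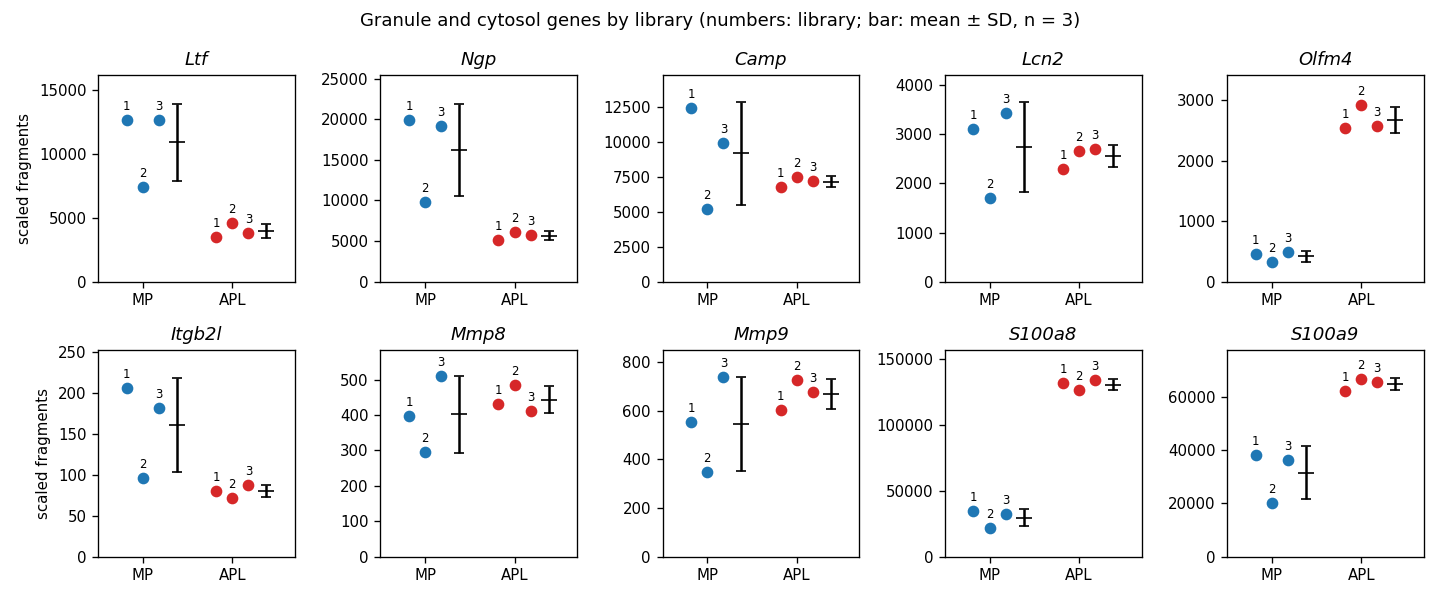
Scaled fragments (y axis, linear from 0) of the 10 genes in each library of normal MPs (blue) and c-Kit+ APL progenitors (red), with the library number above each point and the mean ± SD of 3 libraries as a black bar. The groups are apart for Ltf, Ngp, Olfm4, Itgb2l, S100a8 and S100a9 and overlap for Camp, Lcn2, Mmp8 and Mmp9, and MP library 2 is the lowest MP library in every panel.

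Lactotransferrin and neutrophilic granule protein had the largest decreases among these genes. Ltf encodes lactoferrin, the iron-binding protein of secondary granules, and lies on chromosome 9 of GRCm38 from 111019292 to 111042766. In libraries 1, 2 and 3, normal MPs gave 12639, 7401 and 12679 scaled fragments of Ltf, and APL progenitors 3540, 4583 and 3785. Even the low MP library 2 was above every APL library. Ltf was 2.68-fold lower in APL progenitors, a log2 fold change of −1.42 ± 0.20 (SE, adjusted p = 2.4e-04, limma), and −1.68 without MP library 2. Ngp encodes a cathelicidin-related protein of secondary granules and lies on chromosome 9 from 110419808 to 110423012. Ngp reached 19906, 9755 and 19104 scaled fragments in the MP libraries, in the same order, and 5111, 6172 and 5691 in the APL libraries. The groups did not overlap, and the spread of the MP libraries was wider than that of the APL libraries. The decrease of Ngp was 2.74-fold, with a log2 fold change of −1.46 ± 0.24 (SE, adjusted p = 6.6e-04, limma) and of −1.79 without MP library 2. In the order of change, 23.7% of the genes tested had a larger absolute fold change than Ngp. Two-sided exact permutation tests gave p = 0.1 for each of the 6 called genes, the smallest value that 3 libraries against 3 allow.

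Itgb2l (chromosome 16, 96422298 to 96443614), which encodes the integrin β2-like membrane protein pactolus of neutrophil granules, had the lowest level of the 10 genes in both groups. Normal MPs had 205, 96.2 and 181 scaled fragments, and APL progenitors 80.1, 72.0 and 87.6. MP library 2 was close to the APL libraries but still above each of them. For Itgb2l the log2 fold change was −0.93 ± 0.27 (SE, adjusted p = 0.014, limma), a 1.91-fold decrease, and −1.27 without MP library 2. On the scale of log2(FPKM + 1) it was −0.55, under the fold change of 1.5.

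Camp and Lcn2 stayed within the spread of the MP libraries. Camp encodes the mouse cathelicidin, whose cleaved peptide kills bacteria, and lies on chromosome 9 from 109847377 to 109849456. Camp had 12421, 5212 and 9897 scaled fragments in the MP libraries and 6755, 7510 and 7225 in the APL libraries. All APL libraries lay between MP library 2 and the other MP libraries. Its log2 fold change was −0.27, with a 95% interval from −0.87 to 0.34, which spans APL levels of 0.546 to 1.26 times those of normal MPs (adjusted p = 0.39, limma). Without MP library 2 it was −0.63 (adjusted p = 0.0012, limma), a 1.55-fold decrease past both thresholds. The call on Camp therefore depended on this library, which was picked for its low values of these genes. Lcn2 encodes lipocalin 2, which binds bacterial siderophores, and lies on chromosome 2 from 32384637 to 32387739. Lcn2 had 3098, 1698 and 3430 scaled fragments in the MP libraries and 2290, 2664 and 2702 in the APL libraries. Here too the APL values lay inside the MP range. For Lcn2 the log2 fold change was −0.04, with an interval from −0.57 to 0.48 (adjusted p = 0.88, limma). Without MP library 2 it was −0.36 (adjusted p = 0.014, limma), a 1.28-fold decrease, under the fold change of 1.5. Its direction was not stable, with a value above 0 after median ratio scaling and without MP library 1, MP library 3 or APL library 1.

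Olfm4 showed the largest increase. It encodes olfactomedin 4, a secretory glycoprotein carried in the specific granules of a subset of neutrophils, and lies on chromosome 14 from 80000302 to 80021930. Normal MPs had 459, 319 and 492 scaled fragments of Olfm4, and APL progenitors 2533, 2923 and 2575. Every APL library was above every MP library, with no value between the groups. Olfm4 was 6.41-fold higher in APL progenitors, a log2 fold change of 2.68 ± 0.15 (SE, adjusted p = 7.7e-07, limma), and 2.49 without MP library 2. Olfm4 and Ltf are products of the same granule class. The ratio of Ltf to Olfm4 fragments within a library, which does not depend on how libraries are scaled, was 27.5, 23.2 and 25.7 in normal MPs and 1.40, 1.57 and 1.47 in APL progenitors. The groups were 17.2-fold apart in their means, and the MP libraries were closer to each other in this ratio than in either gene alone.

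The metalloproteinase genes were not called. Mmp8, the neutrophil collagenase of secondary granules (chromosome 9, 7558429 to 7568486), had 397, 296 and 511 scaled fragments in normal MPs against 431, 485 and 412 in APL progenitors. Mmp9, gelatinase B and a defining enzyme of tertiary granules (chromosome 2, 164948251 to 164955846), had 553, 347 and 737 against 602, 726 and 676. For both genes the APL values lay between the lowest and the highest MP library. Mmp8 had a log2 fold change of 0.17, with an interval from −0.24 to 0.59 (adjusted p = 0.43, limma). For Mmp9 it was 0.36, with an interval from −0.18 to 0.89 (adjusted p = 0.21, limma). Without MP library 2 these values were −0.03 and 0.06, whereas without MP library 3 Mmp9 reached 0.61 (adjusted p = 0.010, limma) and passed both thresholds. The call on Mmp9 thus depended on which MP libraries were used.

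S100a8 and S100a9 encode the subunits of calprotectin, a calcium- and zinc-binding complex that makes up much of the neutrophil cytosol and is also made by monocytes. They are neighbours on chromosome 3, S100a8 from 90669071 to 90670034 and S100a9 from 90692633 to 90695691. S100a8 had 34417, 21873 and 32398 scaled fragments in the MP libraries and 131679, 126110 and 134012 in the APL libraries. The groups were far apart, and the APL libraries varied by 3.11% of their mean (SD). S100a8 rose 4.50-fold, a log2 fold change of 2.17 ± 0.18 (SE, adjusted p = 8.7e-06, limma), and 1.97 without MP library 2. S100a9 had 38124, 20038 and 36115 scaled fragments in the MP libraries and 62174, 66519 and 65568 in the APL libraries. The groups did not overlap either, but the step between the groups was smaller than for S100a8. S100a9 rose 2.14-fold, a log2 fold change of 1.10 ± 0.23 (SE, adjusted p = 0.0024, limma), and 0.80 without MP library 2. The subunits therefore did not rise in step. The ratio of S100a8 to S100a9 fragments was 0.903, 1.09 and 0.897 in normal MPs and 2.12, 1.90 and 2.04 in APL progenitors, a 2.10-fold difference between the group means. The S100a8 transcript is short, and its FPKM per scaled fragment varied between libraries from 0.266 to 0.375, against 0.0119 to 0.0123 for Ltf. With log2(FPKM + 1) its log2 fold change was 2.26.

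**Figure D2:**
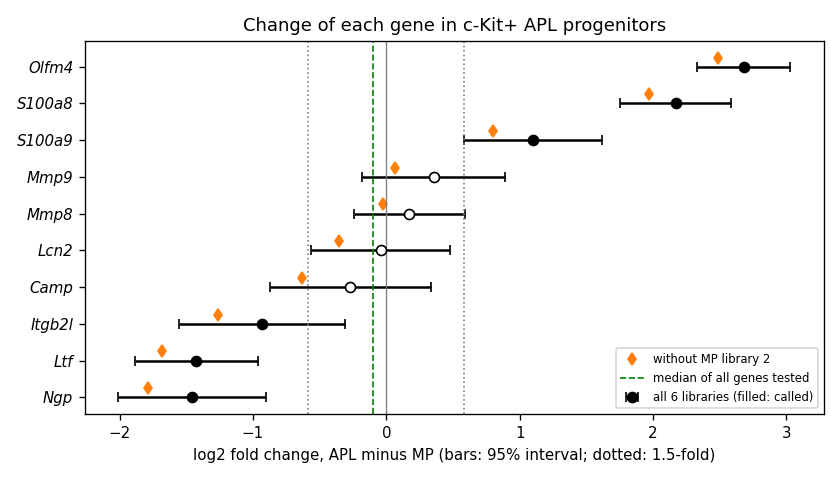
Log2 fold change (x axis, c-Kit+ APL progenitors minus normal MPs) of each gene with its 95% interval from limma, filled where called, and without MP library 2 as orange diamonds. Dotted lines mark a 1.5-fold change and the dashed line the median of all genes tested, −0.10. The diamonds lie to the left of the points for all 10 genes, which follows from leaving out the lowest MP library of each gene.

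Ratios within a library separated the groups for Ngp and Camp and for Ltf and Lcn2, but not for the metalloproteinases. These ratios, and those of S100a8 to S100a9 and Ltf to Olfm4, 5 in all, were chosen after the values were seen and are given without a test. Ngp and Camp, the cathelicidin-type genes, had an Ngp to Camp ratio of 1.60, 1.87 and 1.93 in normal MPs and of 0.757, 0.822 and 0.788 in APL progenitors, a 2.28-fold difference between the means with no overlap. The ratio of Ltf to Lcn2 was 4.05 ± 0.333 and 1.56 ± 0.160 (SD, n = 3 each), a 2.60-fold difference with no overlap. For the collagenase and the gelatinase, the ratio of Mmp9 to Mmp8 was 1.33 ± 0.144 and 1.51 ± 0.123, and the groups overlapped. A ratio shows unequal change and not which of its genes changed.

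The summed fragments of the 10 genes changed in make-up. They held 0.553%, 0.306% and 0.476% of the scaled fragments of MP libraries 1 to 3 and 0.886%, 0.885% and 0.863% of APL libraries 1 to 3. The totals of APL libraries 1 and 3 include 930748 and 942365 scaled fragments of Chi3l3, and that of APL library 2 includes 0. The closeness of these APL shares is therefore not exact. S100a8 and S100a9 together made up 59.3% to 62.5% of the sum of the 10 genes in normal MPs and 88.5% to 90.1% in APL progenitors. Most of this shift lay in S100a8, which went from between 28.0% and 32.6% to between 57.9% and 61.2%, while S100a9 held between 28.9% and 31.3% in all 6 libraries. Ngp went from 14.6% to 16.5% of the sum in normal MPs to 2.38% to 2.83% in APL progenitors, and Ltf from at least 10.3% to at most 2.10%. The other 8 genes summed to 49678, 25123 and 47032 scaled fragments in the MP libraries and to 21343, 25136 and 23154 in the APL libraries. MP library 2 thus lay within the APL range for this sum, and the groups overlapped.

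**Figure D3:**
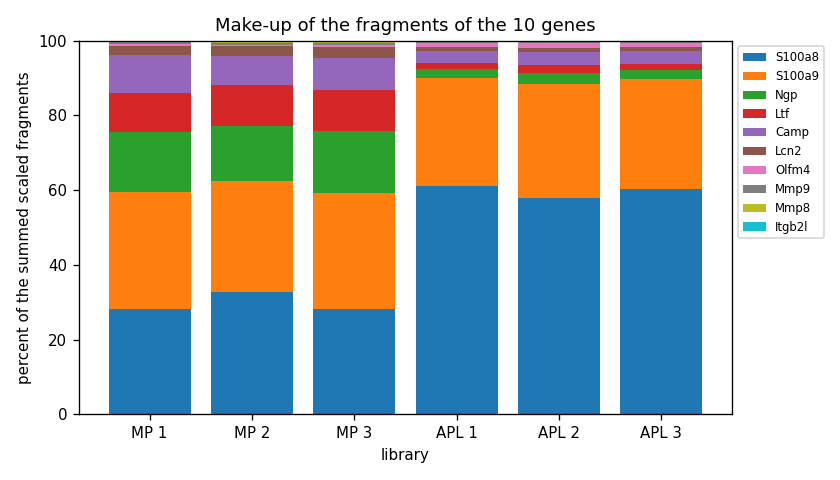
Share of each gene (y axis, percent) in the summed scaled fragments of the 10 genes for each library. S100a8 and S100a9, the lowest blocks, fill 59.3% to 62.5% of the MP bars and 88.5% to 90.1% of the APL bars, and the bar of MP library 2 has nearly the same make-up as those of MP libraries 1 and 3.

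Levels are compared between genes in FPKM, which is corrected for transcript length. S100a8 had the highest mean FPKM of all 16440 genes in both groups, with 8951 ± 1486 in normal MPs and 42909 ± 6375 in APL progenitors (SD, n = 3 each), and S100a9 ranked 5 and 4. The order in normal MPs was S100a8, S100a9, Camp, Ngp, Lcn2, Ltf, Olfm4, Mmp9, Mmp8 and Itgb2l. Camp and Ngp, Lcn2 and Ltf, Olfm4 and Mmp9, and Mmp9 and Mmp8 were neighbours whose MP libraries overlapped, so their order was not resolved. In APL progenitors the order was the same except that Olfm4 stood above Ltf, and no neighbours overlapped. Olfm4 moved from rank 6077 of all genes, with 10.4 ± 2.24 FPKM, to rank 1209, with 66.0 ± 5.20 FPKM. Ltf moved from rank 529, with 132 ± 35.8 FPKM, to rank 1682, with 48.4 ± 6.56 FPKM. Camp stayed near the top, at rank 97 with 878 ± 349 FPKM and at rank 126 with 701 ± 50.7 FPKM. Mmp8, Mmp9 and Itgb2l had mean levels between 1.02 and 8.84 FPKM in both groups.

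The 10 genes varied together among normal MPs and little among APL progenitors. The SD of the log2 values had a median of 0.53 over the 10 genes in normal MPs, from 0.34 for Olfm4 to 0.65 for Camp, and of 0.13 in APL progenitors. For the 7297 genes tested whose mean log2 value was above the median, these medians were 0.12 and 0.08. Relative to the geometric mean of MP libraries 1 and 3, MP library 2 held between 47.0% (Camp) and 67.2% (Olfm4) of each transcript, against a median of 95.9% over all genes tested. A decrease as large as the median of the 10 genes was seen in 3.60% of the genes tested. The genes that rose and the genes that fell in APL progenitors shared this low library.

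**Figure D4:**
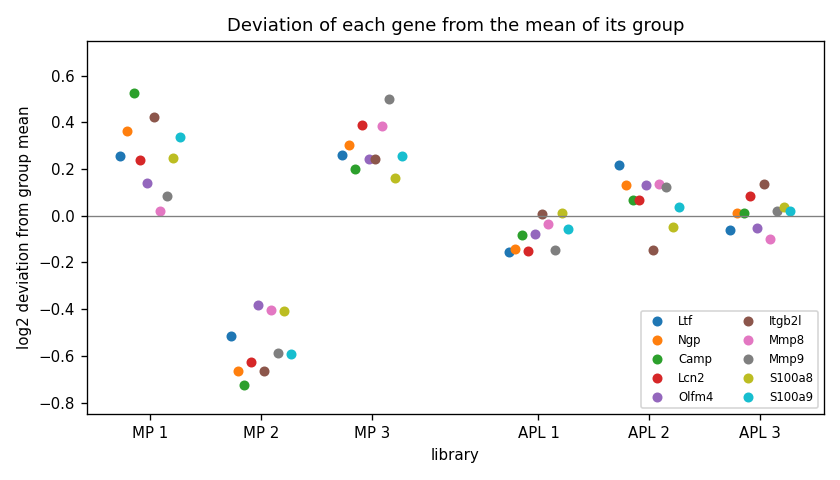
Deviation of each gene from the mean of its own group (y axis, log2) by library, 1 colour a gene. In MP library 2 all 10 genes lie between −0.73 and −0.38, and in the APL libraries all lie between −0.16 and 0.22.

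Other neutrophil genes were low in MP library 2 to different degrees. All 14 other granule genes tested were lowest there, with a median of 68.0% of the other MP libraries, from 49.3% for Mmp25 to 85.2% for Hp. The 6 genes tested of the primary granule list were lowest there as well, but with a median of 89.2%. Genes listed for the neutrophil surface had a median of 84.5%, with 5 of 8 lowest in this library. The eosinophil markers Epx and Prg2 had 67.1%, the erythroid markers 90.5% and the megakaryocyte markers 90.3%, each a median over its list. Kit, Cd34 and Ly6a had a median of 104%. Other lists were low as well, with 73.1% for other S100 genes and 79.9% for mast cell and basophil markers. Monocyte and macrophage markers had 86.8% and B cell markers 95.2%. The 66.1% of T cell markers rests on 2 genes that differed, Cd3d (49.4%, with 18.1 scaled fragments in MP library 2) and Cd4 (88.6%). The low values of MP library 2 were thus not limited to granule genes, and the part of a different share of maturing granulocytes in this was not tested. Among 7289 other genes above the median in expression, those whose log2 values followed the mean of the 10 genes most closely over the 6 libraries included Jdp2, Napsa, Anxa1 and Slc10a3, with Pearson's r between 0.93 and 0.95. Anxa1, which encodes annexin A1 of neutrophil granules and cytosol, had 7945, 5334 and 8373 scaled fragments in the MP libraries and 7377, 7405 and 7024 in the APL libraries. That Anxa1 was lowest in MP library 2 largely follows from its choice by likeness to this mean. The mean of the 10 genes, each centred on the log2 scale, was −0.67 in MP library 2 and between 0.03 and 0.19 in the other libraries. These correlations are descriptions over 6 libraries that fall into 2 groups.

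Other genes of the same granules were mostly higher in APL progenitors. Of 15 other genes of secondary and tertiary granules, 14 were tested, and 9 were higher, 2 lower and 3 not called, with a median log2 fold change of 0.90. Of all genes tested, 21.7% were higher and 24.4% lower, the shares to set beside this list and those below. These lists were chosen with earlier results of these data known. Among the 14 genes the largest increase was that of Hp, haptoglobin, from 4537 ± 661 to 61263 ± 6610 scaled fragments (SD, n = 3 each). This was an increase by 3.76 on the log2 scale (adjusted p = 4.2e-08, limma). Cd177, a surface and granule antigen of neutrophils, went from 1546 ± 419 to 15375 ± 1240 (log2 fold change 3.35). The 2 decreases were those of Fcnb, ficolin B, from 2958 ± 1088 to 341 ± 22.8 (−3.06), and of Pglyrp1, a peptidoglycan recognition protein, from 1577 ± 332 to 499 ± 61.3 (−1.64). Ltf, Ngp, Fcnb and Pglyrp1 thus fell while Olfm4, Hp and Cd177 rose. Pglyrp1 was named after its values were seen. Without MP library 2, 8 were higher and 3 lower, with Mmp25, a leukocyte metalloproteinase, called lower (−0.96) and Chi3l1 no longer called (0.44).

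Among primary granule genes, which are expressed before the genes described here, none was called lower. Of 6 tested in this list, 4 were higher (Mpo, Elane, Ctsg and Ms4a3), and Prtn3 and Prss57 were not called. Ms4a3 was listed with them but encodes a membrane protein and not a granule protein. The primary granule protease gene Ctsg, cathepsin G, had a log2 fold change of 2.55, and Prtn3, proteinase 3, had 29240 ± 2465 against 31875 ± 3198 scaled fragments (log2 fold change 0.12). Of 6 regulators of granulocyte genes tested, Cebpa, Cebpb, Cebpd and Gfi1 were higher. For Cebpe, which encodes the factor required for secondary granules, normal MPs had 1088 ± 191 and APL progenitors 1280 ± 207 scaled fragments, with a log2 fold change of 0.24 (adjusted p = 0.21, limma), and the gene was not called. Runx1, the remaining regulator, had 0.52, under the fold change of 1.5. The largest change of a regulator was that of Cebpd, from 588 ± 82.2 to 4040 ± 512 scaled fragments (log2 fold change 2.78).

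The S100 relatives of S100a8 and S100a9 rose in part. Of 6 tested, 5 were higher (S100a1, S100a4, S100a6, S100a11 and S100a13), and S100a10 was not called, with a log2 fold change of −0.55. Without MP library 2 it was called lower (−0.61). S100a6, calcyclin, went from 132 ± 29.7 to 3711 ± 412 scaled fragments, a log2 fold change of 4.82, which was larger than that of S100a8. Of 8 genes listed for the neutrophil surface, 5 were higher, among them Csf3r, Fcgr3, Il1r2 and Cxcr4. Not called were Cxcr2, Fpr1 and Fcgr4. The list does not mark mature cells alone. In normal MPs Csf3r already had 3833 ± 724 and Cxcr4 1902 ± 36.9 scaled fragments. Cxcr2, the chemokine receptor of mature neutrophils, had a log2 fold change of −0.07. Il1r2, a decoy receptor for interleukin-1, had 5.44, from 11.5 ± 5.56 to 511 ± 42.8 scaled fragments.

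Receptors, inhibitors and partners of the 10 proteins were mixed. Of 13 tested, 5 were higher, 2 lower and 6 not called, with a median log2 fold change of 0.42. This median is the value of Timp1, which had only 0.941 ± 0.937 scaled fragments in normal MPs and 1.38 ± 0.307 in APL progenitors. Tlr4, a receptor for calprotectin, rose from 253 ± 50.1 to 2072 ± 126 scaled fragments, a log2 fold change of 3.05. Slc22a17, a receptor for lipocalin 2, fell from 89.7 ± 18.3 to 4.06 ± 2.56 (−4.31), and Timp3, an inhibitor of matrix metalloproteinases, from 51.3 ± 7.36 to 2.62 ± 2.31 (−4.17). The APL values of these 2 genes rest on a few fragments, so their fold changes are imprecise. Itgb2 (−0.52), the common β2 integrin chain, and Fpr2 (−0.57), a receptor for the cathelicidin peptide, were not called. Without MP library 2 both were called lower (−0.70 and −0.80), which made 4 of 13. Itgb2, Fpr2, Timp1, Mmp25 and Chi3l1 were named after their values were seen. The direction of every called gene of these lists was the same in those 6 settings of scaling or unit.

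**Figure D5:**
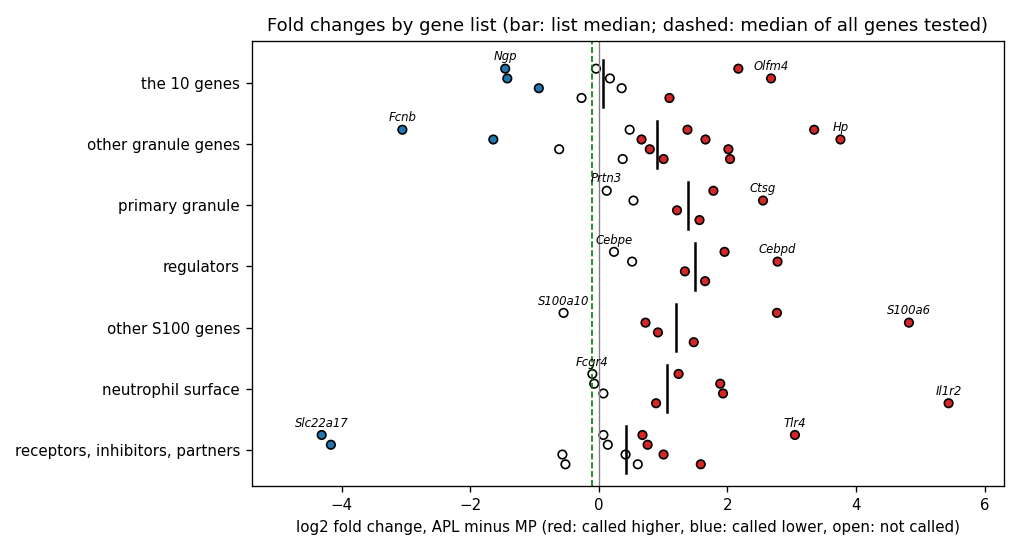
Log2 fold changes (x axis, APL minus MP) of the 10 genes and of 6 lists of related genes, 1 point a gene, red where called higher, blue where called lower and open where not called, with the list median as a black bar. The medians of the 6 related lists lie at 0.42 or higher, above that of the 10 genes, 0.06, and that of all genes tested, −0.10 (dashed). The median of 0.42, of the receptors, inhibitors and partners, is the value of Timp1, a gene with very few fragments. The lists share Itgam and Fpr1.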

How the data were processed

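The 6 libraries were 3 of normal MPs and 3 of c-Kit+ APL progenitors. The deposited FPKM values are normalized by the authors to transcript length and mapped fragments. The deposited fragment estimates are a signal, scaled by library. The step that corresponds to 1 fragment was estimated from low values (0.867 to 1.23 by library), and 87.0% to 88.8% of values under 200 fragments were whole multiples of it within 0.1%, so no count model was used. The submitters' processing notes name CASAVA 1.8, TopHat2 2.0.6 and mm10, while the study's methods name STAR, HTSeq-count, mm9 and DESeq2. Starts in the table count from 0 (7054 of 16332 genes lie 1 base below RefSeq) and are printed counted from 1.

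Limma 3.58.1 in R 4.3.3 (lmFit and eBayes with a trend) was applied to log2(scaled fragments + 1) of genes that reached 1 in 3 or more libraries, and genes were called at an adjusted p under 0.05 and a fold change over 1.5. Fold changes on this scale understate those of low genes. Single values were compared with two-sided exact permutation tests in SciPy 1.17.1. Figures were drawn with matplotlib 3.10.9. The genes named were the 10 genes, the 3 largest changes among called genes of each related list, all genes of lists of up to 8 genes, and the 5 genes most like the mean of the 10, except 2 genes that are not reported here. The 10 genes and the lists were chosen with earlier results of these data known. Spi1, S100a16 and Adgre1, listed among them or the markers, were not analysed here, and Ptx3, Bpi and S100a5 did not pass the filter. Promoter windows are RefSeq's (GRCm38.p6). Alternatives covered pseudocounts, filters, scalings, FPKM, voom, a block, thresholds and each library left out. MP library 2 was singled out after the values were seen.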

Additional observations from a re-analysis of the deposited data

How the results depend on the processing

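The number of the 10 genes called lower stayed between 2 and 4 and the number called higher between 3 and 4 over 19 alternatives. Ltf, Ngp, Olfm4, S100a8 and S100a9 kept direction and call under all 18 alternatives that give a fold change. Itgb2l, at 1.02 to 2.01 FPKM, was lost with log2(FPKM + 1) (log2 fold change −0.55) but called with log2(FPKM + 0.1) (−0.85). It was also called with pseudocounts of 0.5 and 8 on scaled fragments (−0.94 and −0.88). This loss thus came with a pseudocount of 1 in FPKM, which is close to the level of this gene. At 1.91-fold, Itgb2l was also not called with a fold change over 2. Its adjusted p reached 0.047 (limma) with quantile normalization and without APL library 2. Lcn2 turned to 0.019 with median ratio scaling. With 1 library left out, Lcn2 ranged from −0.36 to 0.15, Mmp8 from −0.028 (without MP library 2) to 0.36, Camp from −0.63 to −0.01, Mmp9 from 0.06 to 0.61 and Itgb2l from −1.27 to −0.72. Over all genes, 2205 were called lower with log2(FPKM + 1) and 3078 with log2(FPKM + 0.1), against 3558. With each library left out, 2913 to 3507 genes were lower and 2734 to 3256 higher. The all-gene median shifted by −0.13 with equal library totals and with voom.

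The library numbers pair no animals by the labels. Deviations of same-numbered libraries correlated at 0.10, 0.01 and 0.10 over 12670 genes, and those of differently numbered libraries at −0.20 to 0.12. With the number as a replicate block, 3 of the 10 genes were lower and 3 higher, and 6753 genes were called in all, of which 6673 were among the 6725 called without it. With 3 libraries a group, the spread of the MP libraries limits what can be called for Camp, Lcn2, Mmp8 and Mmp9.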
